A study of Mus musculus with 5 samples.

Results

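Iron uptake, storage, export and haem genes, 10 in all, were followed across the cell types of leukaemic mouse spleens after treatment with a STAT3 decoy: Tfrc, Slc11a2, Fth1, Ftl1, Ncoa4, Slc40a1, Hmox1, Slc11a1, Slc25a37 and Alas2. They were chosen by symbol, 10 of 32285 genes in the count matrices, and all 10 were found. Tfrc was picked because earlier results of these data showed it lower after the decoy, and the others were set beside it as its partners. The values behind that choice are the Decoy and PBS levels themselves, so all member values below are descriptions and carry no test.

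The mice were C57BL/6 hosts given CMM cells, a mouse acute myeloid leukaemia with the inv(16) rearrangement and green fluorescent protein (GFP), by vein. Treatment began at about 1% GFP-positive cells in blood. Decoy mice received 3 intravenous injections of CpG-STAT3dODN on alternate days, and PBS mice received PBS on the same schedule. The agent is an oligonucleotide decoy that binds the transcription factor STAT3, linked to a CpG oligonucleotide that is recognised by the receptor TLR9. Both groups carried the leukaemia, and in both the sort from spleen took cells bearing GFP together with c-Kit, a receptor of immature blood cells. There were 4 Decoy libraries (Decoy 2, 3, 5 and 6) and 1 PBS library, so each contrast compares 4 libraries with 1, and the labels do not say that each library was a separate animal.

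The Decoy libraries held 56490098 to 234251245 unique molecular identifiers (UMIs, counted RNA molecules) and the PBS library 579333323. After filtering, 1933 to 6250 cells per Decoy library and 16034 PBS cells were kept. Despite the sort, clusters with markers of B, T, erythroid and other blood cells were present in both groups. Cells with mast cell and basophil genes (3 of 10 list markers: Cpa3, Ms4a2 and Fcer1a) numbered 5275, 385, 3 and 1425 in Decoy 2, 3, 5 and 6, against 14848 in PBS, so Decoy 5 gave no value for them. At a finer clustering (resolution 1.0) the name was lost: a merged group of 21653 such cells passed only Ms4a2 and Fcer1a. The only cluster named mast cell and basophil-like there held 24 cells, with 8 of 10 list markers. Of those cells, 95.8% belonged to the granulocyte-monocyte progenitor-like class. The class name used here therefore rests on few markers. Any 2 libraries shared 1 to 45 cell barcodes, at most 0.695% of the smaller one. Levels below are CPM, UMI counts scaled to a common library total by the TMM method within each class.

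Cells take up iron bound to transferrin through the transferrin receptor, store it in ferritin, release it through ferroportin and spend much of it on haem. The RNA-binding proteins IRP1 and IRP2 tie these steps together: when iron is short they bind stem-loops called iron-responsive elements, which protects Tfrc messenger RNA from decay and blocks translation of ferritin, ferroportin and Alas2. In the spleen, red pulp macrophages break down old red cells and recycle their haem iron, while erythroblasts are the main iron consumers.

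The stem-loops are shown because the members in which they were found divide into those controlled at the RNA level from the 3' end and those controlled in translation from the 5' end. They were found in GENCODE vM21 transcripts on the mm10 build by searching the sense strand of untranslated regions for CNNNNNCAGTGN with 5 pairing bases on each side of the loop, G-U pairs allowed. Of 20916 genes with a 5' untranslated region, 31 (0.148%) held a match, and of 21045 genes with a 3' untranslated region, 129 (0.613%). The capitals mark the 6-base loop.
Tfrc 3' UTR, chr16:32631220-32631246, plus strand: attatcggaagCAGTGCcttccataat
Tfrc 3' UTR, chr16:32631599-32631625, plus strand: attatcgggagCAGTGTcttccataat
Tfrc 3' UTR, chr16:32631664-32631690, plus strand: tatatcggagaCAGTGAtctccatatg
Tfrc 3' UTR, chr16:32631711-32631737, plus strand: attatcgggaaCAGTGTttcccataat
Fth1 5' UTR, chr19:9982733-9982759, plus strand: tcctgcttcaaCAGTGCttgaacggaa
Ftl1 5' UTR, chr7:45459780-45459806, minus strand: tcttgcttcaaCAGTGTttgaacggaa
Slc40a1 5' UTR, chr1:45925466-45925492, minus strand: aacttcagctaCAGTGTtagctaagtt
Alas2 5' UTR, chrX:150547459-150547485, plus strand: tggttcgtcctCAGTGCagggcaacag
The search found 4 elements in Tfrc, each within 1 exon, and the elements of Slc40a1, Fth1, Ftl1 and Alas2 were single. In the other 5 members no match was found. The search required 5 pairs at a fixed spacing, so an element with a mismatch or a bulge in its stem would be missed. It therefore does not show that these 5 members, Slc11a2 among them, lack an element, or that Tfrc has only 4.

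Tfrc (chr16:32608920-32632794) encodes the transferrin receptor. It was lower in every Decoy library than in PBS in all named cell types with a level in both groups except the macrophage-like one. In mast cell and basophil-like cells Tfrc stood at 52.2, 46.7 and 49.2 CPM in Decoy 2, 3 and 6, against 81.6 CPM in PBS. All 3 Decoy libraries lay below PBS, with a Decoy mean of 49.4 ± 2.7 CPM (SD, n = 3) and a log2 fold change of -0.72 ± 0.11 (SE). Tfrc was the 1 of 10 members past the threshold of edgeR's quasi-likelihood test in this class, where 92 of 14349 genes, 0.641%, were called: 9 lower in Decoy, 0.0627%, and 83 higher, 0.578%. Nothing is read from that count, because Tfrc was chosen on this contrast.

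In granulocyte-monocyte progenitor-like (GMP-like) cells the gap was wider. Their leading genes held the primary granule genes Ctsg, Mpo and Prtn3, with the monocyte marker F13a1 and the basophil markers Mcpt8 and Prss34. At a finer clustering (resolution 1.0), a cluster of 805 cells, 99.1% of them in this class, was named monocyte-like, with 6 of 10 monocyte markers. A different mix of these cells in the 2 groups cannot be told apart from a change within a single type. Tfrc stood at 35.6, 31.5, 25.6 and 29.6 CPM in Decoy 2, 3, 5 and 6, against 95.2 CPM in PBS (95% exact Poisson interval 86.2 to 105, counting error only). The groups did not overlap and the log2 fold change was -1.63 ± 0.17 (SE), and it was the only member past the threshold. There 118 of 11297 genes, 1.04%, were called, 66 lower in Decoy, 0.584%, and 52 higher, 0.46%. Without Decoy 3 the value was -1.64, but the call was lost.

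**Figure D1:**
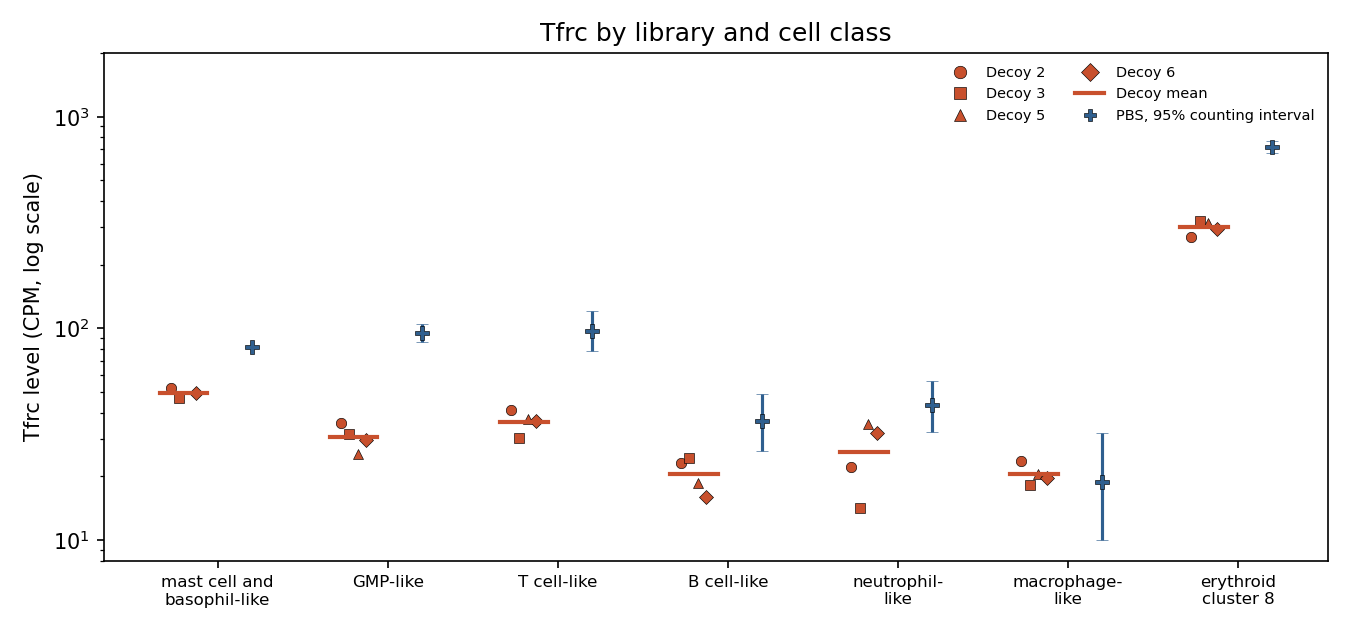
Tfrc level (CPM, log axis) in each library, by cell class. Orange points are the Decoy libraries with their mean as a line, and the blue cross is the single PBS library with its 95% exact Poisson interval. PBS lies above every Decoy library in all classes shown except macrophage-like cells, where PBS was at 18.8 CPM inside the Decoy range of 18.2 to 23.5 CPM.

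Lymphocytes and neutrophil-like cells had lower Tfrc levels in every Decoy library as well, but none passed the threshold. T cell-like cells held 41.1, 30.3, 37.2 and 36.4 CPM in Decoy 2, 3, 5 and 6, against 97.5 CPM in PBS (95% exact Poisson interval 78.0 to 120). B cell-like cells held 23.2, 24.5, 18.5 and 16.0 CPM in Decoy 2, 3, 5 and 6, against 36.4 CPM in PBS (26.4 to 49.1). Neutrophil-like cells held 22.2, 14.2, 35.5 and 32.0 CPM in the same Decoy libraries, against 43.2 CPM in PBS (32.5 to 56.4). In neutrophil-like cells Decoy 5 lay inside the PBS interval and Decoy 6 close to its lower edge. In these 3 classes the log2 fold changes were -1.42 ± 0.19, -0.85 ± 0.28 and -0.63 ± 0.43 (SE), with 0 of 10328, 5 of 11059 and 0 of 9488 genes called in either direction (0%, 0.0452% and 0%). The 5 in B cell-like cells were 3 lower in Decoy, 0.0271%, and 2 higher, 0.0181%, none of them a member. At an unadjusted p under 0.05, edgeR marked 1184 genes in T cell-like and 666 in neutrophil-like cells, and DESeq2 called 106 and 40.

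Part of the lymphocyte difference sat in a few PBS cells that carried erythroid RNA. In PBS B cell-like cells, 11 of 200 had at least 1% of their UMIs from adult globin genes and held 14 of the 43 Tfrc UMIs. In PBS T cell-like cells, 1 such cell of 65 held 31 of the 86 Tfrc UMIs. With these cells left out, a choice made after the data had been seen, Tfrc stood at 16.2 to 24.5 CPM in Decoy and 26.9 CPM in PBS B cell-like cells, a log2 fold change of -0.40. In T cell-like cells it stood at 30.5 to 41.8 CPM in Decoy and 63.4 CPM in PBS, a log2 fold change of -0.85. In GMP-like and in mast cell and basophil-like cells the values without such cells were -1.66 and -0.82, and in neutrophil-like cells -1.15.

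RNA of the mast cell and basophil-like cells was present in the other classes too. Xist, a transcript at 878 to 1084 CPM in those cells of Decoy and 974 CPM in those of PBS, stood at 97.0, 11, 0 and 18.1 CPM in the GMP-like cells of Decoy 2, 3, 5 and 6, against 43.5 CPM in PBS, scaled by the total alone. In T cell-like cells Xist stood at 279, 0.66, 0 and 167 CPM in Decoy 2, 3, 5 and 6, against 293 CPM in PBS. The part of this RNA in the Tfrc levels was not tested.

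Cells with a Tfrc molecule were fewer in Decoy where depth was equalised. With each cell thinned to 5000 UMIs, 18.6%, 17.1% and 18.6% of mast cell and basophil-like cells in Decoy 2, 3 and 6 kept a Tfrc UMI, against 27.9% in PBS. Unthinned, these shares were 62.5%, 53.5% and 53.7% in Decoy and 69.9% in PBS. In GMP-like cells the thinned shares were 8.37%, 4.41%, 9.01% and 12.4% in Decoy 2, 3, 5 and 6, against 22.7% in PBS, and the unthinned shares 38.4% to 48.8% in Decoy and 57.1% in PBS. In B cell-like cells the thinned share in PBS, 5.26%, lay inside the Decoy range of 4.53% to 10.4%, with 57 of 200 PBS cells deep enough to count.

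Tfrc is expressed more by dividing cells, so the mast cell and basophil-like cells were also split by their share of UMIs from 16 G2 and M phase genes, at 0.05%. Levels in this split are CPM over the plain total, without TMM scaling. Above that share Tfrc stood at 58.0, 53.6 and 54.8 CPM in Decoy 2, 3 and 6, against 95.5 CPM in PBS. Below it Tfrc stood at 28.6, 33.2 and 34 CPM in Decoy, against 52.6 CPM in PBS. The Decoy libraries lay below PBS on both sides of the split. The cells above the share made up 68.8%, 53.5% and 56.7% of the class in Decoy 2, 3 and 6, against 65.9% in PBS. In GMP-like cells above the share Tfrc stood at 37.5, 32.3, 25.9 and 31.8 CPM in Decoy 2, 3, 5 and 6, against 107 CPM in PBS. Below it the order turned, at 8.51 to 25.4 CPM in Decoy and 7.31 CPM in PBS, where 32 cells held only 4 Tfrc UMIs. Of GMP-like cells, 85.6% to 91.2% were above the share in Decoy and 71.4% in PBS.

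The 5 clusters of mast cell and basophil-like cells differed far more in Tfrc than the treatment groups did. Cluster 3, led by the mast cell proteases Cma1, Mcpt4 and Cpa3, was the lowest, with 6.60, 12.3 and 8.27 CPM in Decoy 2, 3 and 6, against 15.3 CPM in PBS. Cluster 7, led by the embryonic globins Hbb-y, Hbb-bh1 and Hba-x, was the highest, with 164, 161 and 189 CPM in Decoy, against 214 CPM in PBS. Between them, cluster 2 held 25.1 to 27.8 CPM in Decoy and 48.7 CPM in PBS, cluster 0 held 44.5 to 50.02 CPM in Decoy and 83.8 CPM in PBS, and cluster 1 held 59.4 to 69.7 CPM in Decoy and 97.0 CPM in PBS. PBS was above every Decoy library in each of the 5 clusters, and the order of the clusters was the same in the Decoy means and in PBS.

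**Figure D2:**
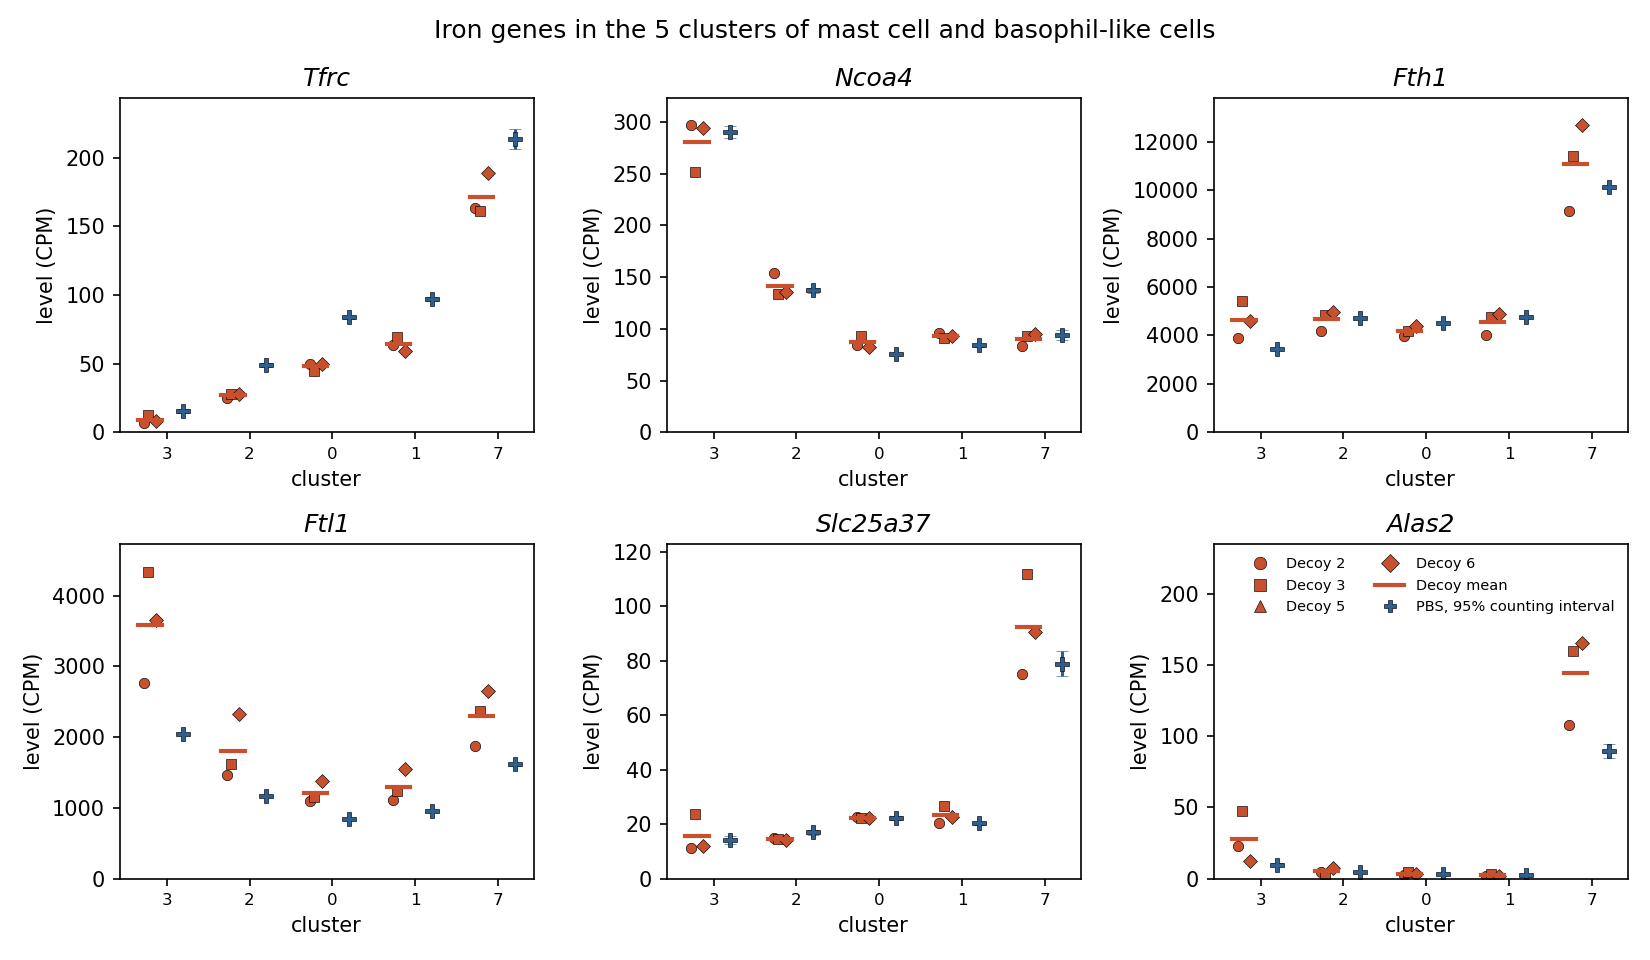
Levels (CPM, linear axes from 0) of 6 iron genes in the clusters of mast cell and basophil-like cells, ordered by Tfrc. Orange points are Decoy 2, 3 and 6 with their mean, blue crosses the PBS library with its 95% exact Poisson interval. Tfrc climbs from cluster 3 to cluster 7 while Ncoa4 is highest in cluster 3, and Alas2 and Slc25a37 stand highest in cluster 7.

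Macrophage-like cells did not share the lower Tfrc level. They held 23.5, 18.2, 20.6 and 19.6 CPM in Decoy 2, 3, 5 and 6, against 18.8 CPM in PBS (95% exact Poisson interval 10.0 to 32.2), from 41 PBS cells, too few for the test. Across all kept cells mixed together, Tfrc stood at 53.0, 69.5, 92.4 and 62.2 CPM in Decoy, against 95.4 CPM in PBS, with 0 of 16006 genes called by edgeR (0%), 1667 at an unadjusted p under 0.05 and 2073 by DESeq2. The mixture is set by which cells each library held: Decoy 5 had 3 mast cell and basophil-like cells and 388 erythroid-like cells, the class with the highest Tfrc level.

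Slc11a2 (chr15:100387898-100425072) encodes DMT1, the divalent metal transporter that moves iron out of the endosome after transferrin has released it. In mast cell and basophil-like cells it stood at 30.6, 27.0 and 28.8 CPM in Decoy 2, 3 and 6, against 25.9 CPM in PBS. The log2 fold change was 0.16 ± 0.12 (SE), so the partner of Tfrc in the same uptake route stood slightly above PBS. In GMP-like cells it was at 11.6, 7.02, 6.60 and 7.23 CPM in Decoy 2, 3, 5 and 6, against 7.20 CPM in PBS, and the groups overlapped. In T cell-like cells every Decoy library was below PBS, as for Tfrc, at 8.69 to 16.0 CPM against 20.4 CPM. The same held in neutrophil-like cells, at 0 to 6.04 CPM against 7.20 CPM from 9 PBS UMIs, and in erythroid cluster 8. Macrophage-like cells went the other way, at 16.3 to 22.6 CPM in Decoy against 7.23 CPM in PBS, and B cell-like cells overlapped. Slc11a2 overlaps the gene Gm5475 on the opposite strand, as Alas2 overlaps Apex2 and Slc25a37 overlaps Gm27222 and Gm27223, and whether the counting used strand is not given in the sources used here.

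**Figure D3:**
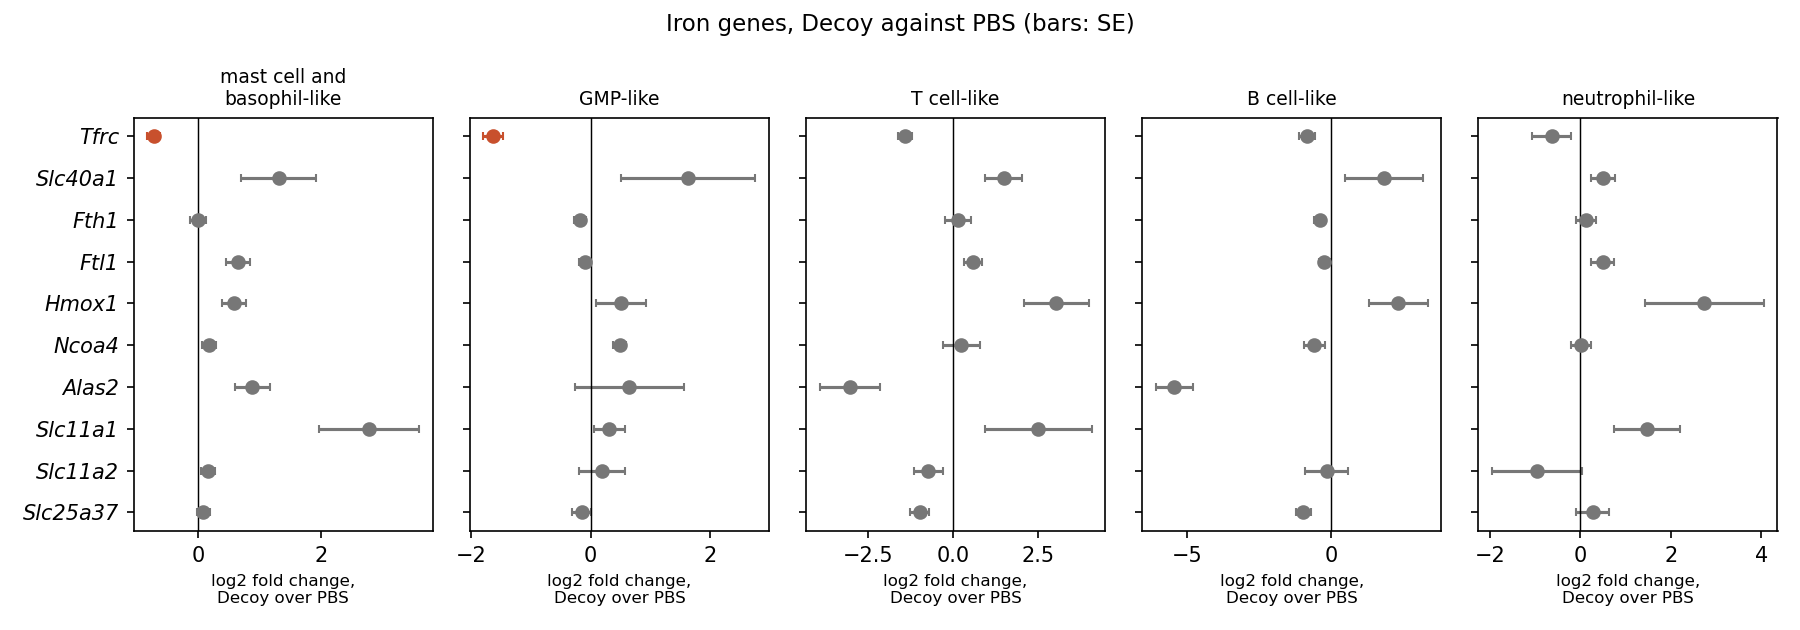
Log2 fold change of each member, Decoy over PBS, with its SE, in the 5 classes tested other than the erythroid-like one, each panel with its own linear axis. Orange marks values past the adjusted p threshold of 0.05 in the fit across all genes, which were Tfrc in mast cell and basophil-like and in GMP-like cells. Alas2 in neutrophil-like cells was not tested, and Slc11a1 in B cell-like cells is left out because PBS had no UMI.

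Fth1 (chr19:9980598-9985098) and Ftl1 (chr7:45457944-45459884) encode the heavy and light chains of ferritin, the iron storage shell, and Ncoa4 (chr14:32159865-32179855) the receptor that delivers ferritin to the lysosome for degradation. In mast cell and basophil-like cells Fth1 stood at 4227, 4864 and 5008 CPM in Decoy 2, 3 and 6, against 4702 CPM in PBS. The groups overlapped and the log2 fold change was 0.00 ± 0.13 (SE). Ftl1 in the same cells stood at 1274, 1686 and 1899 CPM in Decoy, against 1028 CPM in PBS. All 3 Decoy libraries were above PBS, with a log2 fold change of 0.65 ± 0.19 (SE), which did not pass the threshold. Without Decoy 2 it was 0.79 and did pass, in a fit that called 693 genes in place of 92.

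The higher Ftl1 level in Decoy was seen in each of the 5 mast cell and basophil-like clusters. It was largest in level in cluster 3, with 2759, 4329 and 3660 CPM in Decoy 2, 3 and 6, against 2046 CPM in PBS. Cluster 0 held 1094 to 1385 CPM in Decoy and 848 CPM in PBS. Macrophage RNA was also measured in this class, as the sum of 6 genes (C1qa, C1qb, C1qc, Vcam1, Cd5l and Adgre1). It came to only 5.82, 17.8 and 23.5 CPM in the Decoy cells of this class, against 4.05 CPM in its PBS cells. Macrophage-like cells held Ftl1 at 8575 to 14361 CPM in Decoy. The part of macrophage RNA in the Ftl1 level of this class was not tested. Reads of Ftl1 can also match its pseudogene Ftl1-ps1, so its level is uncertain to that extent.

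Ncoa4 differed little between groups and much between clusters. In mast cell and basophil-like cells it stood at 109, 120 and 117 CPM in Decoy 2, 3 and 6, against 102 CPM in PBS (log2 fold change 0.17 ± 0.11, SE). Cluster 3 held 297, 251 and 294 CPM in Decoy, against 290 CPM in PBS, and cluster 0 held 84.6, 93.6 and 82.4 CPM in Decoy, against 75.5 CPM in PBS. The cluster lowest in Tfrc was thus the highest in Ncoa4, in Decoy and in PBS alike. In GMP-like cells Ncoa4 stood at 47.2, 48.8, 48.7 and 48.1 CPM in Decoy 2, 3, 5 and 6, against 34.8 CPM in PBS (95% exact Poisson interval 29.5 to 40.9). All 4 Decoy libraries were above PBS there, opposite to Tfrc, with a log2 fold change of 0.48 ± 0.11 (SE) that did not pass the threshold.

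The ferritin chains in GMP-like cells were slightly lower in every Decoy library. Fth1 stood at 2427, 2240, 2679 and 2265 CPM in Decoy 2, 3, 5 and 6, against 2745 CPM in PBS, and Ftl1 at 3383, 3446, 3835 and 3760 CPM in Decoy, against 3897 CPM in PBS. Their log2 fold changes were -0.18 ± 0.11 and -0.10 ± 0.09 (SE). In T cell-like cells Fth1 overlapped, at 1376 to 3020 CPM in Decoy and 1958 CPM in PBS, while Ftl1 stood at 1013 to 1678 CPM in Decoy and 837 CPM in PBS.

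In macrophage-like cells the recycling genes stood higher in every Decoy library than in PBS. The leading genes of this class included Saa3, Clec4a3, Slc11a1 and Fcgr4, so it is not named as red pulp macrophages. Its 12 erythroid marker genes summed to 303, 1554, 5290 and 5886 CPM in Decoy 2, 3, 5 and 6, against 10652 CPM in PBS, scaled by the total alone. The part of erythroid RNA in the levels of this class was not tested. Hmox1 (chr8:75093621-75100589), haem oxygenase 1, which opens the haem ring and frees its iron, stood at 818, 1247, 1571 and 1502 CPM in Decoy 2, 3, 5 and 6, against 95.5 CPM in PBS (95% exact Poisson interval 73.8 to 121). Slc40a1 (chr1:45908068-45926523), which encodes ferroportin, the iron exporter, stood at 170, 378, 443 and 401 CPM in Decoy, against 46.3 CPM in PBS (31.7 to 65.3). No Decoy library overlapped the PBS interval, and Decoy 2 was the lowest Decoy library for both.

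Ferritin followed the same order in these cells. Fth1 stood at 13310, 18684, 21982 and 19605 CPM in Decoy 2, 3, 5 and 6, against 9220 CPM in PBS. Ftl1 stood at 8575, 10558, 14361 and 12052 CPM in Decoy, against 7119 CPM in PBS. Slc11a1 (chr1:74375195-74386062), the phagosomal metal transporter NRAMP1, whose C57BL/6 allele is known to be non-functional, stood at 301, 362, 392 and 379 CPM in Decoy, against 195 CPM in PBS. Ncoa4 stood at 65.0 to 96.3 CPM in Decoy and 52.1 CPM in PBS, where the interval reached 72.1.

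**Figure D4:**
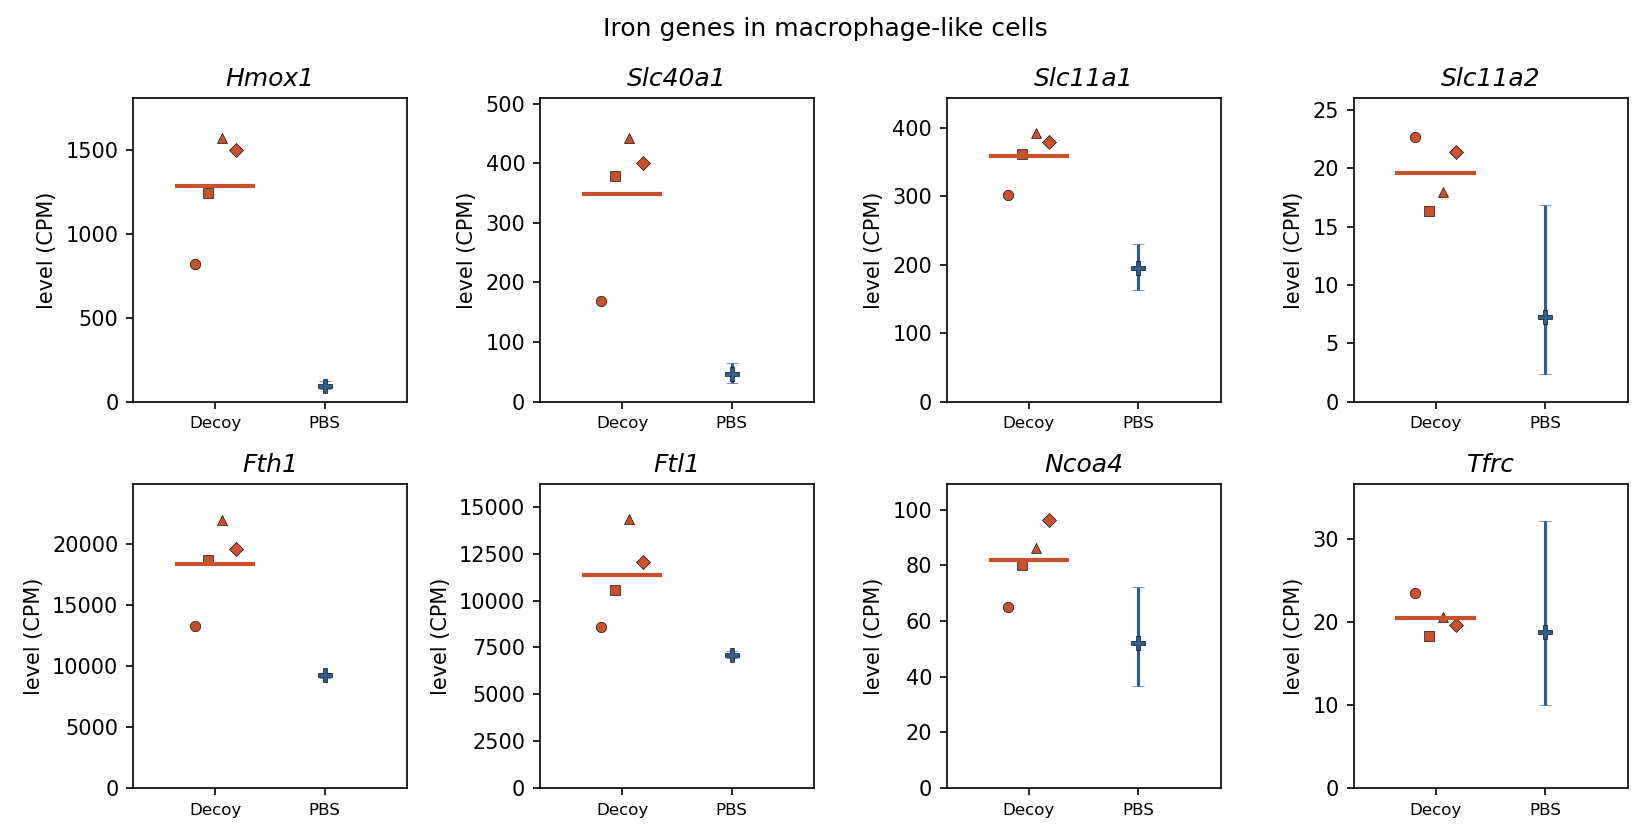
Levels (CPM, linear axes from 0) of 8 iron genes in macrophage-like cells. Orange points are the 4 Decoy libraries (circle, Decoy 2; square, Decoy 3; triangle, Decoy 5; diamond, Decoy 6) with their mean as a line, and the blue cross is the PBS library with its 95% exact Poisson interval. Hmox1 and Slc40a1 lie above the PBS interval in all 4 Decoy libraries, while Tfrc overlaps it.

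Other haem and iron genes of macrophages were at hand for the same cells. Spic, the transcription factor of red pulp macrophages that is induced by haem, stood at 408 ± 130 CPM in Decoy (SD, n = 4) and 175 CPM in PBS. Blvrb, a biliverdin reductase, stood at 729 ± 120 CPM in Decoy and 311 CPM in PBS, and Slc48a1, the haem transporter HRG1, at 117 ± 28 CPM in Decoy and 46.3 CPM in PBS. Alas1, the general haem synthesis enzyme, was close to level, at 41.6 ± 3.4 CPM in Decoy and 39.1 CPM in PBS. The 6 macrophage genes summed to 5092, 6681, 6351 and 6766 CPM in Decoy 2, 3, 5 and 6, against 5392 CPM in PBS. The part of these values in the other levels was not tested. An unnamed cluster, 9, whose leading genes were Sparc, Fscn1 and Ppbp, passed 8 of 10 macrophage markers. Its barcodes were shallow, with a median of 1880 UMIs, 0.10 of the library median, so it is not a separate check on the macrophage-like cells. It held Hmox1 at 1611, 1208, 2871 and 1380 CPM in Decoy 2, 3, 5 and 6, against 111 CPM in PBS. Slc40a1 stood there at 221 to 341 CPM in Decoy and 22.9 CPM in PBS. The PBS values of the macrophage-like cells rest on 41 cells, and a different mix of macrophage types in the 2 groups cannot be told apart from a change within one type.

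Lymphocytes held lower levels of Hmox1, given here beside their macrophage RNA. In T cell-like cells Hmox1 stood at 39.7, 56.7, 93.9 and 149 CPM in Decoy 2, 3, 5 and 6, against 10.2 CPM in PBS, while the 6 macrophage genes summed to 98.3, 91.0, 104 and 213 CPM in Decoy, against 13.6 CPM in PBS. In B cell-like cells Hmox1 stood at 12.2, 53.6, 57.7 and 72.4 CPM in Decoy, against 10.2 CPM in PBS, with macrophage sums of 22.7, 91.1, 101 and 146 CPM in Decoy, against 23.7 CPM in PBS. Decoy 2 was the lowest Decoy library for Hmox1 in both classes. The part of macrophage RNA in these levels was not tested. In B cell-like cells Slc11a1 had no UMI in PBS, where 3 counts of the total, the limit that a count of 0 allows, come to 2.59 CPM before TMM scaling, and stood at 0 to 4.48 CPM in Decoy.

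After the macrophage-like cells, Slc40a1 had its highest Decoy mean among the named classes in neutrophil-like cells. It stood at 61.6, 84.1, 72.9 and 68.5 CPM in Decoy 2, 3, 5 and 6, against 52.0 CPM in PBS (95% exact Poisson interval 40.1 to 66.3). Decoy 2 lay inside that interval and the other 3 above it. The macrophage genes summed to 14.6, 103, 133 and 79.0 CPM in Decoy 2, 3, 5 and 6, against 4.0 CPM in PBS in that class. The part of macrophage RNA in the Slc40a1 level was not tested.

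Erythroid-like cells had the highest Tfrc levels of all, and they were not the same cells in both groups. Cluster 8, led by Atp7b, Aqp1 and Pklr, held 42, 132, 382 and 135 cells in Decoy 2, 3, 5 and 6, against 36 in PBS. Cluster 11, rich in adult haemoglobin and led by Hbb-bs, Hbb-bt and Slc4a1 among others, held 0 to 6 cells per Decoy library, against 550 in PBS. The test called 7 of the 10 members lower in Decoy where 4646 of 10582 genes, 43.9%, were called, 25.3% lower in Decoy and 18.6% higher. Because different clusters hold the class in Decoy and PBS, only the clusters are compared here.

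Within cluster 8, Tfrc stood at 270, 321, 314 and 295 CPM in Decoy 2, 3, 5 and 6, against 721 CPM in PBS (95% exact Poisson interval 677 to 769). The Decoy libraries were close together and all below PBS, as in most other classes. The PBS level rests on 36 cells with a median of 40250 UMIs, against medians of 52039 to 64612 in the Decoy libraries. A different mix of erythroid stages within cluster 8 in the 2 groups cannot be told apart from a change within a single stage. Fth1 stood at 3433, 3317, 3611 and 3550 CPM in Decoy, against 5446 CPM in PBS, so ferritin was lower with it. Slc40a1 was at 17.5, 30.2, 30.2 and 23.4 CPM in Decoy, against 16.5 CPM in PBS (10.4 to 25), and overlapped the interval in 2 libraries.

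**Figure D5:**
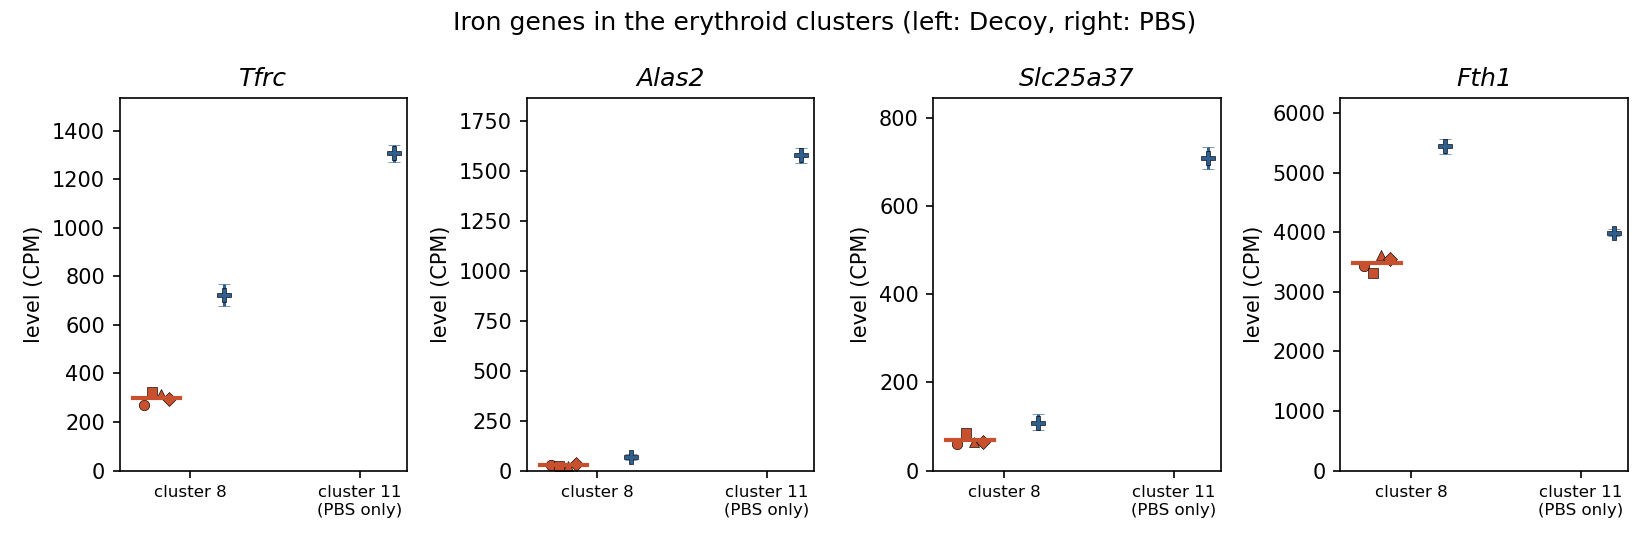
Levels (CPM, linear axes from 0) of 4 iron genes in the erythroid clusters 8 and 11. Orange points are the Decoy libraries with their mean, and blue crosses the PBS library with its 95% exact Poisson interval; cluster 11 had too few Decoy cells for a level. Alas2 stood at 1579 CPM in cluster 11 of PBS, far above cluster 8 in either group.

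Slc25a37 (chr14:69241848-69285112), or mitoferrin 1, brings iron into the mitochondria of erythroblasts, and Alas2 (chrX:150547375-150570638) makes the first product of haem synthesis there. In cluster 8, Alas2 stood at 25.3, 23.6, 23.5 and 32.3 CPM in Decoy 2, 3, 5 and 6, against 66.1 CPM in PBS (95% exact Poisson interval 53.0 to 81.4). Slc25a37 stood at 60.7, 84.7, 63.9 and 63.6 CPM in Decoy, against 109 CPM in PBS (91.9 to 128). Both were lower in every Decoy library than in PBS. In cluster 11 of PBS, Alas2 reached 1579 CPM, Slc25a37 709 CPM and Tfrc 1306 CPM, the highest level of each in any cluster.

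Outside the erythroid cells Alas2 is given beside adult globin RNA. In B cell-like cells it stood at 1.66, 0.20, 1.39 and 0.45 CPM in Decoy 2, 3, 5 and 6, against 40.7 CPM in PBS, while the 4 adult globin genes summed to 399, 47.1, 596 and 297 CPM in Decoy, against 8145 CPM in PBS. The 11 globin-bearing PBS cells held 42 of its 48 UMIs, and without such cells Alas2 stood at 0.20 to 1.66 CPM in Decoy and 5.56 CPM in PBS. In mast cell and basophil-like cells Alas2 stood at 7.73, 15.7 and 11.4 CPM in Decoy 2, 3 and 6, against 6.02 CPM in PBS, and without globin-bearing cells at 2.26, 3.84 and 2.96 CPM in Decoy, against 2.91 CPM in PBS. In PBS, 1321 of the 3117 Alas2 UMIs of this class were in cluster 7, led by embryonic globins, which held 460 of its 14848 cells. Slc25a37 in T cell-like cells stood at 14.6 to 21.1 CPM in Decoy and 34 CPM in PBS, and without such cells at 14.3 to 17.2 CPM in Decoy and 15 CPM in PBS. The gap narrowed in B cell-like cells, and the groups overlapped in the other 2 cases, when cells with adult globin RNA were left out.

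Among the mast cell and basophil-like clusters, cluster 7 stood apart in haem genes. Alas2 stood at 108, 160 and 166 CPM in its Decoy 2, 3 and 6 cells, against 89.8 CPM in its PBS cells. Slc25a37 stood at 75.1, 112 and 90.4 CPM in Decoy, against 79.0 CPM in PBS, and Fth1 at 9158, 11409 and 12685 CPM in Decoy, against 10126 CPM in PBS, so both overlapped.

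The wider iron pathway was set beside the members in mast cell and basophil-like cells. In 8 lists of iron, haem, iron-sulphur and oxidative stress genes, 87 genes other than the members were tested. Of these, 0 passed edgeR's threshold, where 0.641% of all genes did, and 11 had an unadjusted p under 0.05, against 1330 of all 14349 genes. DESeq2 called 2, Egln1 and Slc48a1. Counts this near the share over all genes say nothing particular about the lists. The median log2 fold changes were 0.02 for transferrin uptake, 0.16 for storage, 0.34 for export, -0.03 for sensing, 0.09 for haem synthesis, 0.19 for haem breakdown, -0.02 for iron-sulphur assembly and -0.03 for Nrf2-type stress genes, beside 0.00 over all 14349 genes. Among abundant uptake genes, Snx3, a sorting factor of the transferrin receptor, stood at 198 ± 9 CPM in Decoy (SD, n = 3) and 213 CPM in PBS. Among the sensors, Ireb2, which encodes IRP2, stood at 32.1 ± 0.8 CPM in Decoy and 33.7 CPM in PBS. Pcbp1, an iron chaperone that loads ferritin, stood at 418 ± 4 CPM in Decoy and 366 CPM in PBS. Tmem14c, a mitochondrial porphyrin transporter, stood at 837 ± 8 CPM in Decoy and 928 CPM in PBS, and Txnrd1, thioredoxin reductase, at 156 ± 6 CPM in Decoy and 195 CPM in PBS. The adjusted p of these 5 genes in edgeR's test ran from 0.28 to 0.90.

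In GMP-like cells 3 further genes of the lists, of 83 tested, were called lower in Decoy, where 0.584% of all genes were called lower. The lists were chosen with earlier results of these data known, and the 3 genes are named because this same contrast called them. Fbxl5, the iron-sensing subunit of the ligase that degrades IRP2, fell to 51.8 ± 3.1 CPM in Decoy (SD, n = 4), against 90.1 CPM in PBS (log2 fold change -0.79 ± 0.11 SE, edgeR adjusted p = 0.032). Hfe, a membrane protein that binds the transferrin receptor, fell to 16.7 ± 0.9 CPM in Decoy, against 30.4 CPM in PBS (-0.85 ± 0.13 SE, edgeR adjusted p = 0.042). Hp, haptoglobin, which binds free haemoglobin, fell to 602 ± 65 CPM in Decoy, against 1071 CPM in PBS (-0.82 ± 0.13 SE, edgeR adjusted p = 0.047). For each of the 3, all 4 Decoy libraries were below PBS. The p-values take their spread from the Decoy libraries alone, against 1 PBS library. The class also mixes progenitor, monocyte and basophil markers, so a different mix of cells cannot be told apart from a change within a single type. The calls rested on single libraries: without Decoy 3 the edgeR adjusted p of the 3 genes ran from 0.0961 to 0.113, without Decoy 5 from 0.0995 to 0.114, and without Decoy 6 it was 0.0541 for Fbxl5 and 0.0676 for Hfe, while the log2 fold changes stayed between -0.91 and -0.74. DESeq2 called all 3. The transferrin uptake list had 2 of 10 tested genes called lower, Hfe and Tfrc, the second of which was chosen for its lower level in Decoy, with a median log2 fold change of -0.27, and the sensing list 1 of 6, with a median of -0.40, beside 0.03 over all 11297 genes. The other medians were 0.10 for storage, 0.31 for export, -0.12 for haem synthesis, 0.11 for haem breakdown, 0.08 for iron-sulphur assembly and -0.29 for Nrf2-type stress genes.

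Across the 35 library-by-class sums with at least 50 cells, from 8 classes, each member had close companions. The measure was Pearson's r of log2(CPM + 1) over genes with a mean of 5 CPM or more; the sums share libraries, depth and cell types, so it is a description. Among the genes most like Tfrc were Rhag (r = 0.89) and Kel (0.89); Rhag and Kel are red cell membrane genes. Alas2 was most like the adult globins Hbb-bs (0.97), Hba-a2 (0.95) and Hbb-bt (0.94), and Slc25a37 like Ranbp10 (0.93), Epb41 (0.90) and Epb42 (0.89). Hmox1 was most like Spic (0.96), Nr1h3 (0.96) and C1qc (0.95), and Slc11a1 like Cd300c2 (0.97), Fcgr4 (0.97) and Gm5150 (0.97). Slc40a1 was most like Fmnl2 (0.84), Serpinb6a (0.84) and Irf7 (0.84).

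The storage and transport members had other companions. Fth1 was most like Myo9a (0.94), Cltc (0.93) and Tpp1 (0.90), and Ftl1 like Ftl1-ps1 (0.93), Msr1 (0.90) and Adap2 (0.90). Ncoa4 was most like Fam214b (0.89), Hipk2 (0.86) and Zfhx3 (0.82), and Slc11a2 like Slc29a1 (0.96), Btaf1 (0.94) and Hyal2 (0.91).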

How the data were processed

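The authors deposited whole-number UMI counts per gene and barcode, not normalized. The file headers name Cell Ranger 5.0.0. The submitters' processing notes list Cell Ranger 3.1, Seurat 4, DESeq2 and mm10, without roles. Barcodes with at least 500 genes, 1000 UMIs and at most 10% mitochondrial UMIs were kept. Doublets marked by scrublet (scanpy 1.11.5) were removed; it marked 6.88% of PBS and at most 0.412% of Decoy barcodes, against expected rates of 15.5% and 1.96% to 5.49%, so doublets may remain in Decoy and in PBS. Cells were clustered with leidenalg 0.10.2 at resolution 0.5 on 2000 variable genes without the iron genes. Clusters correlated at 0.95 or more were merged and named from 16 marker lists (at least 3 markers in 10% of cells and 2-fold above the other clusters); names mean resemblance. At resolution 1.0, clusters took the class that held most of their cells.

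UMI counts were summed per library and class and fitted across all genes with edgeR 4.0.16 (R 4.3.3; filterByExpr, TMM, quasi-likelihood test, Benjamini-Hochberg adjusted p under 0.05), for classes with at least 50 cells in PBS and in 3 Decoy libraries; levels needed 20 cells. With 1 PBS library, only Decoy libraries gave the spread, PBS was assumed to vary like them, and the p-values may reflect technical spread between libraries. An exact permutation over 4 libraries against 1 cannot go below 0.2. On simulated data, the fit recovered 99% of 4-fold changes in mast cell and basophil-like cells, 92% in GMP-like cells, 66.5% in B cell-like, 52.5% in T cell-like and 48% in neutrophil-like cells (200 genes each). It also called 13, 10, 3, 6 and 4 unchanged genes in these classes. Only genes at 20 CPM or more were changed, with 1 spread for all genes and PBS drawn like Decoy. These shares therefore do not describe smaller changes or members below that level. Intervals and floors (3 counts) cover counting error only. In the annotation 32235 of 32285 genes were found.

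The members and lists were chosen with earlier results of these data known. Added after seeing the data were a fit without globin-bearing cells, the split by G2 and M phase genes and the levels per cluster. All 10 members were named; from each list, called genes by smallest p (up to 3 per class), and abundant genes in mast cell and basophil-like cells; per member the 3 genes most like it, of which 1 is not reported here. Of the abundant list genes, 5 are printed, picked after their values were seen. Spic, Blvrb, Slc48a1 and Alas1 in macrophage-like cells, and Xist were chosen after their values were seen.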

Additional observations from a re-analysis of the deposited data

Results flagged for a closer look

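Over the 4 Decoy libraries, 80 sets of member levels were looked at for a library far from the other 3, and 7 had one, where chance gives about 1 in 20. Slc40a1 in B cell-like cells stood at 0.55 CPM in Decoy 2, against 9.84 to 11.6 CPM in the other Decoy libraries. Slc11a1 in T cell-like cells stood at 15.1 CPM in Decoy 6, against 3.31 to 5.27 CPM. Slc25a37 stood at 84.7 CPM in cluster 8 of Decoy 3, against 60.7 to 63.9 CPM, and at 26.6 CPM in neutrophil-like cells of Decoy 5, against 18.1 to 19.3 CPM. Fth1 in neutrophil-like cells stood at 1517 CPM in Decoy 5, against 1337 to 1351 CPM. Slc11a2 in GMP-like cells stood at 11.6 CPM in Decoy 2, against 6.60 to 7.23 CPM. Alas2 in plasma cell-like cells stood at 3.63 CPM in Decoy 3, against 0 to 0.60 CPM.

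For 6 members every Decoy library was above PBS in some cell types and below it in others. The difference between cell types was not tested. A single PBS library can be the lowest or the highest by chance, and the share of all genes showing both sides was not counted, so nothing is read from this count. Some sides lay within counting error. In neutrophil-like cells the 95% exact Poisson interval of PBS held every Decoy level of Slc25a37, and those of Fth1 except in Decoy 5. Alas2 there rested on 3 PBS UMIs. In macrophage-like cells the PBS interval of Slc25a37, 17.7 to 44.7 CPM, held every Decoy level, 17.9 to 23.1 CPM. Without globin-bearing cells the groups overlapped for Alas2 in mast cell and basophil-like cells and for Slc25a37 in T cell-like cells. Fth1 was above in 2 (macrophage-like and neutrophil-like) and below in 3 (B cell-like, GMP-like and cluster 8). Ftl1 was above in 4 (T cell-like, macrophage-like, mast cell and basophil-like and neutrophil-like) and below in 2 (GMP-like and cluster 8). Ncoa4 was above in 3 (GMP-like, macrophage-like, mast cell and basophil-like) and below in 2 (B cell-like and cluster 8). Alas2 was above in 1 (mast cell and basophil-like) and below in 5, and Slc25a37 was above in 2 (mast cell and basophil-like and neutrophil-like) and below in 4. Slc11a2 was above in 2 (macrophage-like, mast cell and basophil-like) and below in 3 (T cell-like, neutrophil-like and cluster 8).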

How the results depend on the processing

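The log2 fold change of Tfrc, given as a description because Tfrc was chosen on this contrast, ran from -0.82 to -0.68 over 9 alternatives in mast cell and basophil-like cells and from -1.80 to -1.54 over 10 in GMP-like cells, where it missed the threshold without Decoy 3. Counts of called genes depended on the settings, and the cause was not tested. DESeq2 called 2073 genes over all kept cells (0 with edgeR), 213 in B cell-like (5), 356 in GMP-like (118), 258 in mast cell and basophil-like (92), 40 in neutrophil-like (0) and 106 in T cell-like cells (0). Without the filter on low counts the counts were 96 in B cell-like, 270 in GMP-like, 567 in mast cell and basophil-like and 28 in T cell-like cells. With doublets removed at the expected rate they were 249 in B cell-like, 290 in GMP-like, 18 in neutrophil-like and 19 in T cell-like cells. Resolution 1.0 gave 257 in GMP-like and 21 in mast cell and basophil-like cells, and leaving out cells with adult globin RNA, an alternative chosen after seeing the data, 8 in B cell-like cells. Leaving out 1 Decoy library at a time gave 0 to 2474 over all kept cells, 0 to 5 in B cell-like, 10 to 540 in GMP-like, 199 to 693 in mast cell and basophil-like and 0 to 59 in T cell-like cells; the highest counts over all kept cells, in GMP-like, mast cell and basophil-like and T cell-like cells came without Decoy 2. In mast cell and basophil-like cells Slc40a1, Slc11a1, Ftl1, Hmox1 and Alas2 passed the threshold without Decoy 2 and without the filter, and Slc11a1 and Ftl1 under DESeq2. In T cell-like cells Tfrc passed it without Decoy 2, without the filter and under DESeq2, and Hmox1 under DESeq2. Alas2 in B cell-like cells passed it without the filter and with doublets removed. Over all kept cells Slc40a1, Slc11a1 and Hmox1 passed it under DESeq2 and without Decoy 2, and Ftl1 without Decoy 2. No paired analysis was possible because the PBS group has 1 library and its label carries no replicate number. The single PBS library, with 41 macrophage-like and 36 cluster 8 cells, limits every comparison.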
